A study of Homo sapiens with 6 samples.

Results

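The MYC locus and the surrounding gene desert at 8q24 were examined as the stretch of chromosome 8 from 126.4 to 130.8 Mb on the human build hg19. The stretch was defined by position alone, and its members are the 20 kb bins and the domains that lie in it. Of its 220 bins, 219 had a compartment score in both cell lines, out of 140474 such bins in the whole series. The missing bin, at 128260001 to 128280000, was absent from both tracks. The landmarks are TRIB1 at 126.44 Mb, a colorectal super-enhancer near 128.2 to 128.45 Mb, MYC at 128.748 Mb, PVT1 at 128.81 to 129.11 Mb and GSDMC at 130.76 to 130.8 Mb. These positions come from the definition of the region, not from the Hi-C files.

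The study used Hi-C, which cross-links chromatin and sequences DNA ends ligated because they lay close together. The established cell line HCT116, from a human colorectal cancer and labelled WT, was compared with DKO1, the same line with knockout of DNMT1 and DNMT3B, the maintenance and a de novo DNA methyltransferase. Both lines were grown in the same serum-supplemented medium, and no treatment is named. There are 3 libraries per line, but their labels name 1 compartment track and 1 domain list per line. Every value below is therefore a single pooled value with no replicate error, the lines could not be tested against each other, and all differences are between these maps. DKO1 is known as a single clone, so the knockout and the clone cannot be told apart. HCT116 is also known to carry a rearranged chromosome with additional 8q material, and copy number was not measured here.

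MYC encodes a transcription factor that drives growth and proliferation, and it is commonly over-expressed in colorectal cancer. The gene stands almost alone in a desert whose DNA is rich in enhancers, and in colorectal cells a distant super-enhancer upstream of it is known to contact its promoter. PVT1, the long non-coding RNA gene downstream of MYC, has a promoter known to compete with that of MYC for enhancers. In the RefSeq gene table, which is on GRCh38 and was used for names and order only, all 4 member genes were found. Between TRIB1 and GSDMC that table lists 3 protein-coding genes, LRATD2, POU5F1B and MYC, and 30 long non-coding RNA genes, PVT1 among them. Of the latter, CCAT1, CASC19, CASC8, CCAT2 and CASC11 lie between TRIB1 and MYC, and CCDC26 lies between PVT1 and GSDMC. Chromatin of compartment A is open and gene-rich, and that of compartment B is closed and gene-poor. Here the sign of PC1, the first principal component of the contact map, gives the compartment, with positive values called A. The authors' scores were scaled to a mean of 0 and an SD of 1 on each chromosome, so that a score is a position relative to the rest of chromosome 8.

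The whole locus was in compartment A in HCT116, and in DKO1 part of it was in compartment B. All 219 bins had a positive PC1 in HCT116, with a lowest value of 0.22, a median of 0.75 and a highest of 1.24. In DKO1 165 bins were positive, and the lowest, median and highest values were -0.49, 0.24 and 1.49. The mean over the locus was 0.75 in HCT116 and 0.32 in DKO1, a difference of -0.43. PC1 was lower in DKO1 in 197 of the 219 bins, while 49.4% of autosomal bins were lower. Of bins that were A in HCT116, 55.2% on the autosomes and 65.4% on chromosome 8 were lower. A switch from A in HCT116 to B in DKO1 was made by 54 bins, or 24.7% of the locus. It was also made by 8.92% of all autosomal bins and by 16.6% of those that were A in HCT116. No bin could switch from B to A, since none was B in HCT116, and the autosomal share of that switch was 4.4%.

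The size of the mean difference depends on where 0 was placed on chromosome 8. The median PC1 of the chromosome was 0.26 in HCT116 and 0.031 in DKO1, a shift of -0.22. With the chromosome median subtracted from each track, the difference over the locus was -0.21. With a 10 Mb running mean subtracted it was -0.21 as well. That running mean includes the locus itself, so part of the locus's own change is removed by construction. None of the 54 switched bins went below -0.5 in DKO1, and 61 bins had an absolute PC1 of at least 0.5 in both lines, of which 0 switched. Differences between parts of the locus within 1 track do not depend on a single centre such as the mean or median, though the running mean, which varies along the chromosome, can alter them.

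The profile of DKO1 was more uneven than that of HCT116. The SD over the bins was 0.27 in HCT116 and 0.46 in DKO1, a ratio of 1.67. This was not particular to the locus. The ratio was 1.66 over the bins of chromosome 8 that were A in HCT116. Over autosomal bins in the HCT116 range of the locus it was 1.99. In HCT116 174 bins reached 0.5, and in DKO1 61 did. In DKO1 most of the high bins were grouped beside TRIB1, in the super-enhancer and in PVT1, and the stretches between these groups were mostly lower, from -0.49 upwards. Across the 219 bins the tracks had a Pearson r of 0.77, which describes neighbouring bins of 1 locus and carries no p.

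**Figure D1:**
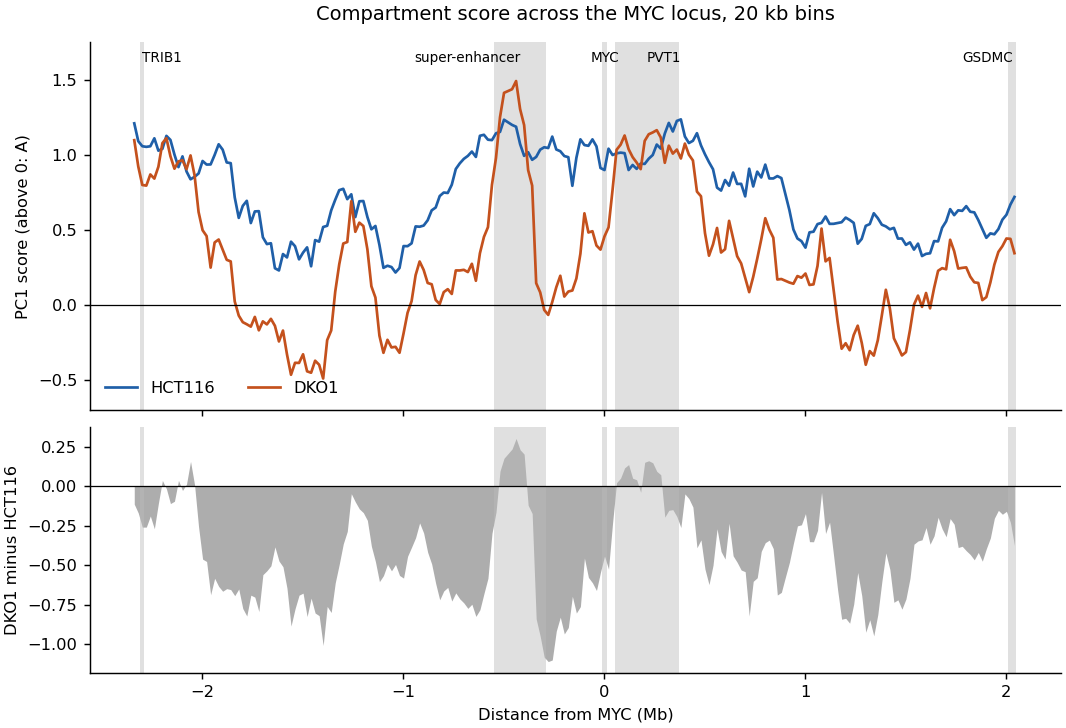
PC1 score per 20 kb bin in HCT116 (blue) and DKO1 (orange) against the distance from MYC in Mb, with the difference, DKO1 minus HCT116, in the lower panel; grey bands mark the bins of the landmarks, and the lines pass straight over the 1 missing bin. HCT116 stays above 0 throughout, and DKO1 reaches HCT116 in bins beside TRIB1, in the super-enhancer and in PVT1. DKO1 drops below 0 between TRIB1 and the super-enhancer, narrowly at the MYC end of the super-enhancer, and between PVT1 and GSDMC.

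TRIB1, which encodes a pseudokinase that directs proteins to degradation, lies at the start of the locus. Its bin had a PC1 of 1.06 in HCT116 and 0.80 in DKO1. The difference of -0.26 was -0.034 after median subtraction and turned to 0.073 after the running mean was subtracted, and 28.3% of autosomal bins were lower in DKO1 by at least as much. The bins from 126.4 to 126.74 Mb all stayed at 0.5 or above in DKO1, with a mean of 0.92 against 1.01 in HCT116. DKO1 was above HCT116 in 5 of these 17 bins, among them the 3 from 126.66 to 126.72 Mb, with means of 0.92 in DKO1 and 0.86 in HCT116. The chromatin beside TRIB1 was thus in compartment A in both tracks, at nearly the same level.

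The desert between TRIB1 and the super-enhancer held most of the switched bins. Over its 87 bins, from 126.46 to 128.2 Mb, the mean was 0.69 in HCT116 and 0.19 in DKO1. DKO1 was the lower in 82 of them, and 32 switched to B. The longest switched run measured 480 kb, from 126920001 to 127400000, with means of 0.45 and -0.25. It contained the lowest DKO1 bin of the locus, at 127.34 Mb, where HCT116 had 0.52 and DKO1 -0.49. A second run of 160 kb, from 127620001 to 127780000, had means of 0.30 and -0.23. Both runs lay where HCT116 itself was low, with bins between 0.23 and 0.69 in the first and between 0.22 and 0.40 in the second. An island of A separated them in DKO1, from 127.4 to 127.62 Mb, with a highest bin of 0.69 at 127.48 Mb against 0.74 in HCT116.

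From 127.8 Mb to the super-enhancer both tracks ended higher than they began, by different paths. HCT116 went from 0.52 at 127.8 Mb to 1.10 at 128.18 Mb. DKO1 stood at 0.20 at 127.8 Mb, was lowest at 127.92 Mb with 0.0065, had 0.16 at 128.1 Mb and reached 0.80 at 128.18 Mb. The bin at 128.1 Mb was at 0.99 in HCT116, a difference of -0.82, so that the foot of the super-enhancer also differed although neither track was in B there.

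The super-enhancer, which is active in colorectal cancer cells, was split in DKO1. The 12 bins from 128.2 to 128.46 Mb averaged 1.09 in HCT116 and 0.91 in DKO1, and the difference of -0.17 became -0.32 with 40 kb added on each side, and turned to 0.052 after median subtraction and to 0.021 after the running mean was subtracted. In HCT116 these bins were all between 0.97 and 1.23. In DKO1 the 9 bins on the side of TRIB1, up to 128.4 Mb, had a mean of 1.20 and a range of 0.79 to 1.49. The highest DKO1 value of the locus, 1.49, was at 128.3 Mb, where HCT116 had 1.19. The 6 scored bins from 128.22 to 128.36 Mb, on both sides of the missing bin, were higher in DKO1, by 0.097 to 0.30. The 3 bins on the side of MYC were between -0.033 and 0.15 in DKO1, with a mean of 0.066, against a mean of 1.02 in HCT116.

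The border between these parts, at 128.4 Mb, was the steepest step of the locus. DKO1 went from 0.79 to 0.15 between neighbouring bins, a step of -0.65, while HCT116 went from 0.97 to 0.99. Among 132846 steps between neighbouring autosomal bins of DKO1, 44 were at least as large, or 0.033%. This step was picked as the largest of the 217 in the locus, so the share does not set the locus apart. The median absolute step of DKO1 was 0.080 in the locus and 0.077 on the autosomes, and that of HCT116 was 0.042 and 0.064. The next steepest step, at 128.36 Mb, was -0.30 and also lay inside the super-enhancer. Mappability and structural variation at these positions were not analysed here.

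The stretch between the super-enhancer and MYC had the largest difference of all segments. Its 14 bins averaged 1.02 in HCT116, nearly as high as PVT1, and 0.24 in DKO1, with every bin lower and a mean difference of -0.78. The bin at 128.46 Mb went from 1.04 to -0.066, and this difference of -1.11 was the largest in the locus. Of autosomal bins, 1.56% were lower in DKO1 by as much. Since this bin was picked as the largest difference of 219 bins, the share does not set the locus apart. A pair of bins, from 128440001 to 128480000, was called B. Between 128.5 and 128.62 Mb DKO1 stayed between 0.056 and 0.19, and from there to MYC it lay between 0.34 and 0.61.

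MYC itself stayed in compartment A at a lower score. Its bin, at 128740001 to 128760000, had a PC1 of 0.90 in HCT116 and 0.46 in DKO1. The bins beside it had 0.91 and 1.04 in HCT116, and 0.37 and 0.52 in DKO1. The difference at MYC was -0.44, and -0.22 after median subtraction and -0.25 after subtraction of the running mean. A difference at least as low was found in 17.6% of autosomal bins. Over the 5 bins centred on MYC the means were 0.98 and 0.50. In HCT116 the MYC bin was 0.13 below the mean of PVT1, and in DKO1 it was 0.59 below. Against the super-enhancer it was 0.19 below in HCT116 and 0.46 below in DKO1.

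Before centring, PVT1 had a similar level in both lines. Its 16 bins, from 128.8 to 129.12 Mb, averaged 1.03 in HCT116, with a range of 0.90 to 1.23, and 1.05 in DKO1, with a range of 0.90 to 1.16. The difference of 0.021 became -0.036 when the stretch was widened by 40 kb on each side, and 0.25 and 0.21 after subtraction of the median and of the running mean. DKO1 was higher in 11 bins, which were the first 6, up to 128.92 Mb, and the 5 from 128.94 to 129.04 Mb. In the last 4 bins of PVT1 the difference was between -0.15 and -0.19. The edge of this plateau faced MYC: DKO1 went from 0.52 at 128.76 Mb over 0.77 at 128.78 Mb to 1.03 at 128.8 Mb, and HCT116 stayed between 1.00 and 1.04 there. With the bins that follow, DKO1 kept a score of 0.5 or above over 480 kb without a break, from 128.76 to 129.24 Mb.

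The desert beyond PVT1 resembled that on the side of TRIB1. All 82 bins from 129.12 to 130.76 Mb were lower in DKO1, with means of 0.64 and 0.19 and differences between -0.038 and -0.95. The switch to B was made by 20 of them. Runs of 240 kb, from 129900001 to 130140000, and of 120 kb, from 130160001 to 130280000, had means of 0.54 and 0.45 in HCT116 and of -0.24 and -0.22 in DKO1. A single bin at 130.14 Mb, with 0.10 in DKO1, kept them apart. The other switched bins were single ones at 130.32 and 130.36 Mb, at -0.012 and -0.022 in DKO1. Scores so close to 0 would change their call with a small shift of the centre.

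GSDMC, which encodes a pore-forming protein of the gasdermin family, marks the far end. Its 2 bins had 0.67 and 0.72 in HCT116, and 0.44 and 0.34 in DKO1. The mean difference was -0.30, and -0.077 after median subtraction and -0.16 after the running mean was subtracted. Both genes at the ends of the desert were therefore in compartment A in both lines.

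TRIB1, the super-enhancer and PVT1 stood further above the deserts in DKO1 than in HCT116. A bins of chromosome 8 as a whole were also more spread in DKO1, with an SD ratio of 1.66. Whether the margins here exceed that wider spread was not tested. TRIB1 was above the adjoining desert by 0.37 in HCT116 and 0.61 in DKO1. The super-enhancer was above the same desert by 0.40 and 0.72, and PVT1 was above the desert on its far side by 0.39 and 0.86. Between PVT1 and the stretch from the super-enhancer to MYC, the difference was 0.0098 in HCT116 and 0.81 in DKO1. With the running mean subtracted, these 4 differences were 0.32, 0.47, 0.31 and 0.018 in HCT116, and 0.63, 0.72, 0.78 and 0.82 in DKO1. The margin of MYC over the deserts changed little. MYC had 0.90 in HCT116 and 0.46 in DKO1. The desert on the side of TRIB1 had 0.69 and 0.19, and the desert beyond PVT1 had 0.64 and 0.19. From high to low the landmarks of HCT116 were the super-enhancer, TRIB1, PVT1, MYC and GSDMC, with 1.09, 1.06, 1.03, 0.90 and 0.69. The order in DKO1 was PVT1, the super-enhancer, TRIB1, MYC and GSDMC, with 1.05, 0.91, 0.80, 0.46 and 0.39. With the running mean subtracted, PVT1 was above TRIB1 in HCT116, with 0.42 and 0.31, and GSDMC was above MYC in DKO1, with 0.11 and 0.028. The first 3 in HCT116 lie close together, and no replicate spread exists against which to read the order.

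**Figure D2:**
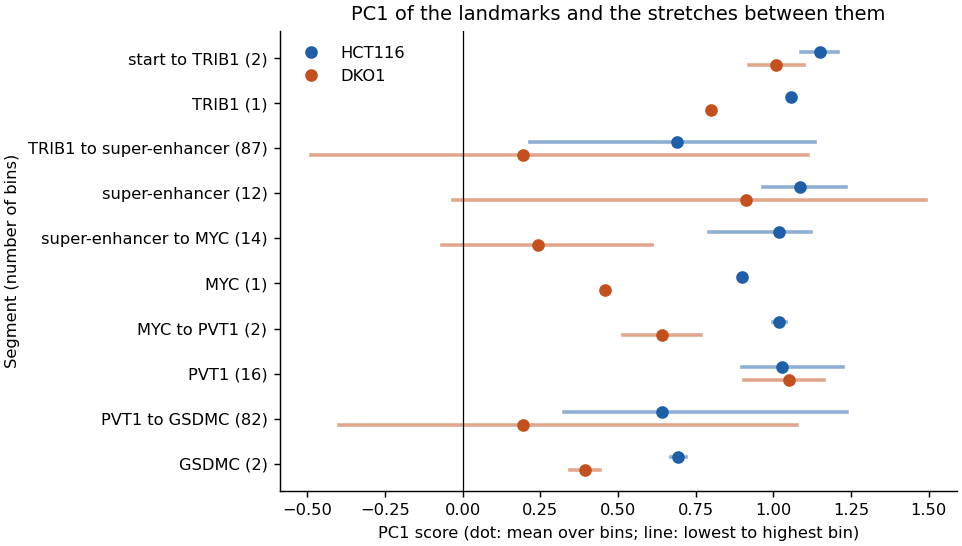
PC1 score (horizontal axis) of the landmarks and of the stretches between them, in order along the chromosome, in HCT116 (blue) and DKO1 (orange); dots are means over the bins given in brackets, and lines run from the lowest to the highest bin, which are neighbours and not replicates. The dots lie closest for PVT1, at 1.03 and 1.05, and furthest apart for the stretch from the super-enhancer to MYC, at 1.02 and 0.24.

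The bins of the locus were set beside autosomal bins of the same HCT116 level, in classes chosen after the values were seen. Of its 45 bins under 0.5 in HCT116, 31 switched, or 68.9%, against 45.2% of autosomal A bins of that level. From 0.5 to 0.9, 21 of 90 bins switched, or 23.3%, against 11.3%. At 0.9 and above, 2 of 84 did, or 2.38%, against 1.23%. The mean differences in these classes were -0.51, -0.46 and -0.36 in the locus, and -0.19, -0.10 and -0.013 on the autosomes. In every class the locus was thus lower in DKO1 than the autosomal mean, and the margin was similar at each level. The scores were not centred for this comparison, and the median of chromosome 8 as a whole shifted by -0.22.

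Among autosomal windows of the same length, the locus was towards the lower end in change but not at the end. End-to-end windows of 4.4 Mb with at least 80% of their bins gave 581 windows with the locus included. The mean change of -0.43 was the 51st lowest, so that 8.78% of windows were as low, and the median over windows was 0.019. The share of bins that went from A to B, 24.7%, was the 56th highest, where the median was 4.09%. Its correlation of 0.77 was the 130th lowest, with a median of 0.89. The ratio of the SDs, 1.67, ranked 32nd, or in the top 5.51%, in a comparison added after the data were seen. Among the 30 windows with every bin in A in HCT116 this ratio ranked 12th, with a median of 1.48. For the mean change the share as low was 14.6% with medians subtracted and 4.82% with the running mean subtracted. For the share of A to B it was 16.3% among the 301 windows with a positive mean in HCT116. With medians subtracted it was 5.34%, and with the running mean subtracted 2.07%. After a subtraction the signs are relative to the new centre, so those shares rank sign changes and not compartment calls. On chromosome 8 alone, the change ranked 2nd lowest of 31 windows.

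**Figure D3:**
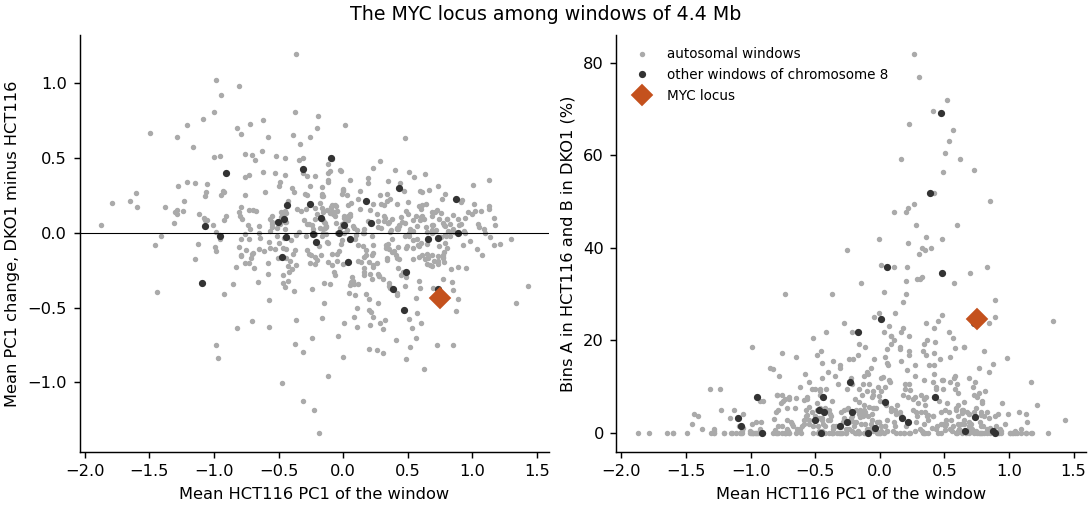
Mean PC1 change, DKO1 minus HCT116 (left), and percent of bins that switched from A to B (right), against the mean HCT116 PC1 of autosomal windows of 4.4 Mb; grey points are windows, black points the other windows of chromosome 8 and the diamond the MYC locus. The diamond, at 0.75 on the horizontal axis, has a change of -0.43 and a share of 24.7%, with windows of larger change and larger share around it.

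In HCT116 an unbroken A compartment over such a length was uncommon. Only 30 of the 581 windows had every bin in A, and the MYC locus ranked 7th among them by the share that went to B. The 6 with higher shares were on chromosomes 8, 13, 7, 6, 7 and 1, and the first of these, at 74800001 to 79200000 of chromosome 8, had 69.1%. The median of the 30 was 1.63%. By mean HCT116 PC1, SD and number of HCT116 domains, the nearest windows to the locus were at 70.4 to 74.8 Mb of chromosome 13, 83.6 to 88 Mb of chromosome 7 and 88 to 92.4 Mb of chromosome 8. Their mean changes were 0.29, -0.76 and -0.26, and their shares of A to B were 0%, 71.8% and 34.5%. Windows that resembled the locus in HCT116 thus went in both directions in DKO1.

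Before centring, scores were also lower in DKO1 beyond the locus on the side of TRIB1. In the preceding 4.4 Mb, from 122 to 126.4 Mb, the means were 0.71 and 0.44, and 51 of 220 bins, or 23.2%, went from A to B. The mean difference there was -0.27, close to the shift of -0.22 in the median of chromosome 8. In the following 4.4 Mb, from 130.8 to 135.2 Mb, the means were 0.10 and 0.23, and 5 bins did so. Over the A bins of chromosome 8 as a whole, the mean difference was -0.12 and 19.6% went to B.

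Domains, or stretches that contact themselves more than their surroundings, were nearly absent from the locus. The HCT116 list held 1 domain there and the DKO1 list 0. The HCT116 domain measured 280 kb, from 126440001 to 126720000, so that TRIB1 lies at its first edge. Over its bins PC1 averaged 1.00 in HCT116 and 0.93 in DKO1, a difference of -0.076. No DKO1 domain matched it at a reciprocal overlap of 80%, which was true of 64.1% of autosomal HCT116 domains. Neither of its 2 boundaries was found in DKO1 within 40 kb, against 54.8% of autosomal HCT116 boundaries not found. The nearest DKO1 boundaries were 1.68 and 1.96 Mb away. The one domain missing from DKO1 thus lay in chromatin that was in compartment A in both tracks, outside every switched run.

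MYC, the super-enhancer and PVT1 were in no listed domain in either line. The stretch without a domain around MYC ran from 126.72 to 132.2 Mb in HCT116, a length of 5.48 Mb, and from 124.76 to 133.88 Mb in DKO1, a length of 9.12 Mb. It was the 26th longest of 1718 such autosomal stretches in HCT116, where the median was 0.36 Mb, and the 47th longest of 1079 in DKO1, where the median was 0.72 Mb. Of the 183 HCT116 stretches of at least 2 Mb, 43 had a positive mean PC1, and 7, with this one included, had a mean as high as its 0.69. Depth is unknown for both maps, and an empty stretch shows only that none was listed.

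**Figure D4:**
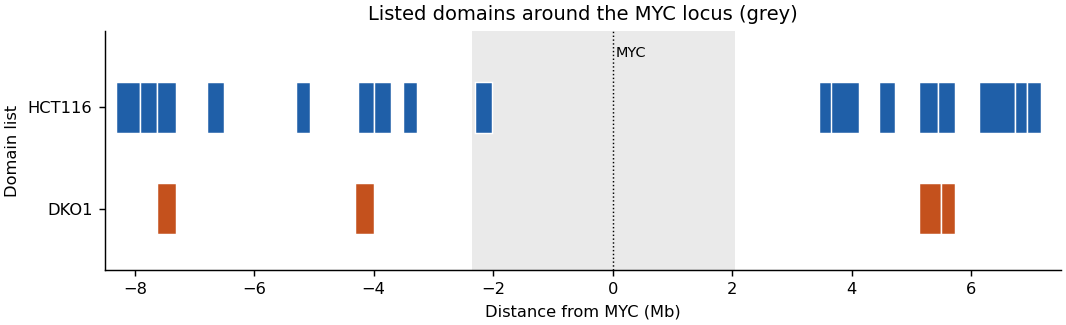
Domains listed in HCT116 (blue) and DKO1 (orange) against the distance from MYC in Mb, with the locus shaded grey and MYC dotted. HCT116 has 1 domain in the shaded locus, at its left edge beside TRIB1, and DKO1 has 0.

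Loss of all domains was common among windows with as few of them. A rank of domain loss had been set for windows with at least 3 HCT116 domains, which the locus does not reach, and the share of windows without a DKO1 domain is given in its place. Among the 29 windows with 1 HCT116 domain, the locus included, 23 had none in DKO1, or 79.3%. In all 581 windows 137 had none, or 23.6%, and the median number was 7 in HCT116 and 2 in DKO1. The domain count of the locus was therefore low in both lines, and the change from 1 to 0 was that of most windows with 1 domain.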

How the data were processed

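Per the submitters' processing notes, HiC-Pro, HOMER 4.6 and the build hg19 (GRCh37) were used, with no role given. Which domain caller and read filters were used is not given in the sources used. The authors deposited a PC1 score per 20 kb bin and a list of domains on a 40 kb grid, without a score, for each line. On every chromosome that score averaged 0 with an SD of 1. Bins in both tracks were joined by position. Landmark means took every bin a landmark touches. Windows were laid end to end from each chromosome start. Rank shares count the locus itself. For domain loss, the share of all windows without a DKO1 domain replaced the rank set for windows with at least 3 HCT116 domains after the locus was found to have 1. Named were the 4 genes, the super-enhancer, runs of at least 60 kb, every domain of the locus and the 3 nearest windows, by distance over 3 standardised measures. The members and lists were chosen with earlier results of these data known. In simulated data, 73 of 73 A-to-B runs planted in the autosomal HCT116 track of 133051 bins were recovered. The runs were planted without noise, so this checks only the run finding and not the calls in DKO1. Python 3.11.15, numpy 2.4.6 and pandas 2.3.3 were used. In the alternatives, a PC1 difference, rank share or count was taken as moved beyond 1.5 times its value, and a share of bins or windows outside its 95% Wilson interval. That interval takes neighbouring bins or windows as independent, which they are not, so it serves only as a limit.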

Additional observations from a re-analysis of the deposited data

How the results depend on the processing

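No paired analysis was possible because the 3 replicates of each line share pooled files, which also meant that leaving one out could not be tried. Of 54 alternative values, 29 stayed within the limits set, 21 moved beyond them and 4 were of the opposite sign. The mean change of the locus was -0.209 with medians subtracted and -0.211 with the 10 Mb running mean subtracted. The share of bins above 0 in HCT116 and below 0 in DKO1 was 33.8% with the running mean subtracted. Those signs are relative to the surrounding 10 Mb, so this share does not count compartment switches. Among bins of at least 0.5 in both lines, the share of A to B was 0%. The share of windows with as low a change was 14.6% (median) and 4.82% (running mean). The share with as high an A to B share was 16.3% (positive HCT116 mean), 5.34% (median) and 2.07% (running mean). For the median and running mean it counts sign changes about the new centre, not compartment calls. Windows without a DKO1 domain made up 13.3% with a positive HCT116 mean, 70% within 2 of the HCT116 count of the locus, 13.6% with at least 3 HCT116 domains and 79.3% with 1. At the landmarks, median and running mean subtraction gave -0.034 and 0.073 for TRIB1, 0.052 and 0.021 for the super-enhancer, -0.22 and -0.25 for MYC, 0.25 and 0.21 for PVT1, and -0.077 and -0.16 for GSDMC. Widening by 40 kb gave -0.32 for the super-enhancer and -0.036 for PVT1. Both subtractions move the centre of the scale by construction. The domain counts of the locus were the same at every overlap, membership rule and length limit tried. The share of all windows without a DKO1 domain, the SD ratio, steps, within-track differences with each subtraction, flanks, domain-free stretches and windows with 1 domain were added after the data were seen. Map depth is unknown.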

Other observations

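Windows like the MYC locus, in compartment A but with few domains, were looked at after the values had been seen. Of the 301 autosomal windows of 4.4 Mb with a positive mean HCT116 PC1, 18 had at most 1 HCT116 domain, and the MYC locus was 1 of them. Their median share of bins that went from A to B was 35.9%, against 5% in the 283 windows with at least 2 domains. Mean PC1 differed as well, with medians of 0.25 and 0.50. Among windows with a mean from 0 to 0.5, the median shares were 35.9% in 15 windows with at most 1 domain and 9.55% in 141 with more. At 0.5 and above they were 24.7% in 3 windows, of which the MYC locus was the middle one, and 3.53% in 142. The window at 70.4 to 74.8 Mb of chromosome 13, with a mean of 0.66 and 1 HCT116 domain, had a share of 0%. A window's mean does not fix the level of its bins, and bins were not matched by level here. Of autosomal A bins under 0.5 in HCT116, 45.2% switched, against 1.23% of those at 0.9 and above. Few domains and low bin levels were thus not told apart. No test was made, and neighbouring windows are not independent.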
